A study of Mus musculus with 9 samples.

Results

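The genes described here encode proteins of the cytosolic ribosome and paralogues of them. Rps4l is an exception, as GENCODE M21 annotates it as a transcribed processed pseudogene, although its symbol does not say so. They are the rows of the count tables whose symbol is Rpl or Rps with a number and at most a short letter suffix, together with Rplp0, Rplp1, Rplp2 and Rpsa, and without pseudogene symbols and the Rps6k kinases. The rule gave 84 of 24421 symbols: 43 proteins of the large subunit, 30 of the small subunit, the 3 stalk proteins and 8 paralogues with a symbol such as Rpl36al or Rps4l. Symbols that name other ribosomal proteins, such as Fau and Rps3a1, fall outside it.

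The libraries were made from pigment epithelium with choroid, cut out by laser capture from the eyes of 8-week-old male mice. In each eye 4 laser burns had broken the membrane beneath the pigment epithelium, which starts choroidal neovascularization, and 5 µg of reagent at 5 mg/ml was injected into the vitreous. Each of the 3 groups held 3 libraries: Fc, the antibody fragment used as control, ABTAA, an antibody that binds angiopoietin-2 and thereby switches on Tie2, a receptor of endothelial cells, and VEGF Trap, which captures VEGF as a decoy. The study compared Tie2 activation with VEGF blockade. All 3 groups carry the laser injury and an injection, so no group shows uninjured tissue, and the sample labels name no strain or genotype and no number of mice behind a library. Headings inside the Fc tables name a knockout control, which the sample labels do not. The p-values therefore measure only the spread between these libraries, which may be technical, and in such bulk samples fewer cells of a type cannot be told apart from less RNA per cell.

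A ribosome is built from ribosomal RNA and one copy of most ribosomal proteins, so that the genes of a subunit are made in balance, and their messages are among the most abundant of any growing or secreting cell. In mammals these messages begin with a C followed by a stretch of pyrimidines, the terminal oligopyrimidine motif, through which the kinase mTOR and the RNA-binding protein LARP1 set their translation and stability. The genes lie scattered over the genome, and most have left processed pseudogenes, intronless copies of the message that resemble it closely.

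The promoters of the genes that the results turn on are shown here, from 100 bases before to 20 bases after the start given by RefSeq on GRCm38.p6, 5′ to 3′ on the strand of the gene. Capitals mark a C that lies within 5 bases of the start, with the 4 or more C or T that follow it. Rps23 (chr13:90923022-90923141, plus strand), Rpl36al (chr12:69184048-69184167, minus strand) and Rps19 (chr7:24884492-24884611, plus strand) were lower in both treated groups. Rpl34 (chr3:130730379-130730498, minus strand) and Rplp2 (chr7:141447551-141447670, plus strand) did not pass the test and are shown for comparison.
Rps23: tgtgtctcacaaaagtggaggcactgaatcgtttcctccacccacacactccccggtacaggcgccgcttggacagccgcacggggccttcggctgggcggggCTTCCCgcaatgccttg
Rpl36al: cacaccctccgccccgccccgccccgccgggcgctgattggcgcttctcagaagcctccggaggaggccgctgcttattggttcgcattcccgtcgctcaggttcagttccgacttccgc
Rps19: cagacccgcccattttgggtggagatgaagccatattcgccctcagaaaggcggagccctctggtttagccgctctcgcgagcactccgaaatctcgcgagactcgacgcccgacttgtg
Rpl34: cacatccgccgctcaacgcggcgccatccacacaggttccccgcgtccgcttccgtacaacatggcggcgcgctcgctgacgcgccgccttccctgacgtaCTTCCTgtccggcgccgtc
Rplp2: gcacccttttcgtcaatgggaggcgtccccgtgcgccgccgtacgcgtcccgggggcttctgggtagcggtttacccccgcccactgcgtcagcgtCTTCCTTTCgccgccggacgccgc

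Rps23, Rpl34 and Rplp2 carry such a run at the start, while the promoters of Rpl36al and Rps19 shown here do not. For Rps19 the most upstream of 3 listed starts is shown, and none of the 3 holds the run. Promoters of 63 of the 84 genes were in the table used, and 29 of them (46.0%) held a run at 1 or more of their listed starts, against 21.2% of all 27025 genes. In the window from 250 bases before to 50 after the start, on either strand, the ETS core CCGGAAG stood in 25 of the 63 (39.7%) and in 9.93% of all genes. The YY1 letters AAGATGG stood in 10 (15.9%) against 7.28%, and TATAAA in 7 (11.1%) against 15.7%. These are matches of letters, and RefSeq lists more than 1 start for some genes, which gives such a gene more chances to match.

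Total counts ran from 6335805 to 14439835 per library, and the 84 genes held between 2.11% and 2.49% of them. The share was 2.35%, 2.31% and 2.49% in the Fc libraries, 2.20%, 2.15% and 2.37% in the ABTAA libraries, and 2.11%, 2.25% and 2.25% in the VEGF Trap libraries. Every VEGF Trap share lay below every Fc share. Rn45s, the ribosomal RNA precursor, held 10.1% to 11.8% of the counts in Fc, 11.7% to 13.1% in ABTAA and 12.9% to 15.8% in VEGF Trap. Of the counts without Rn45s, a share taken after seeing the data, the 84 genes held 2.59% to 2.77% in Fc, 2.44% to 2.73% in ABTAA and 2.51% to 2.60% in VEGF Trap, and the ranges overlapped. In CPM, the counts scaled to library size with the TMM correction for composition, the 84 genes summed to 23185 ± 456 in Fc, 22498 ± 1033 in ABTAA and 22636 ± 286 in VEGF Trap (mean ± SD, n = 3). On that scale the ranges overlapped, from 22659 to 23466 in Fc, from 21469 to 23535 in ABTAA and from 22339 to 22910 in VEGF Trap. The most abundant gene, Rplp1, gave between 9.57% and 11.3% of the 84 genes' counts in a library.

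**Figure D1:**
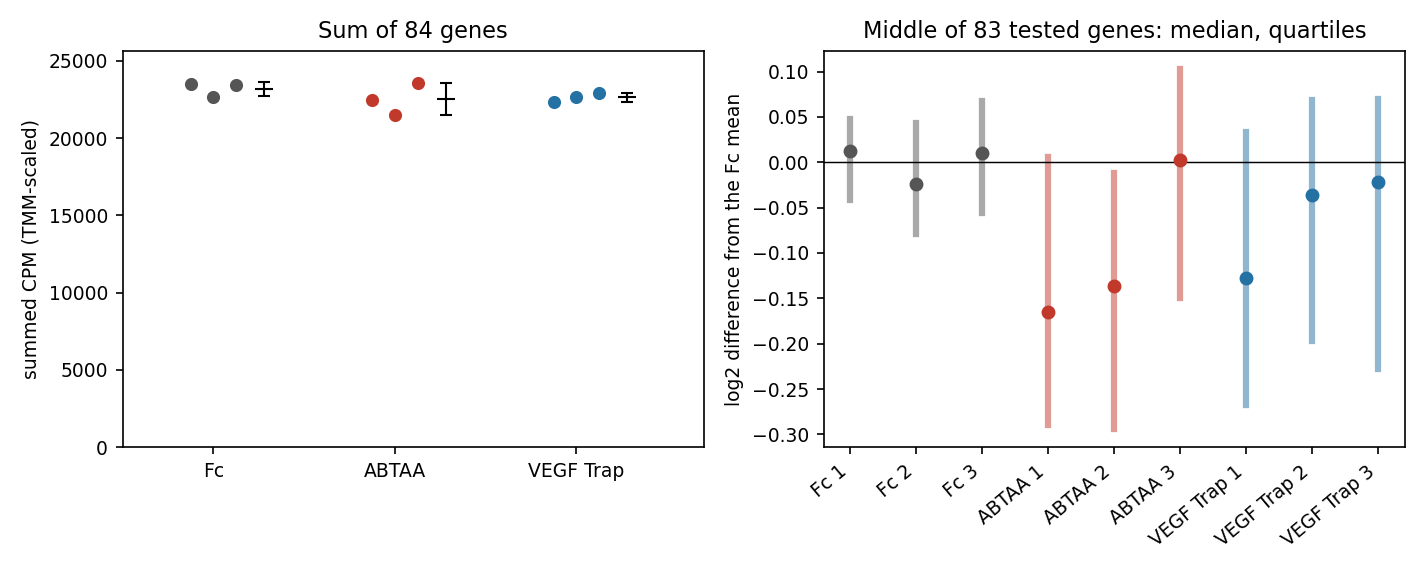
Left, summed CPM (TMM-scaled) of the 84 genes in each library, points in order of replicate number, with mean ± SD of 3 libraries. Right, for each library the median (point) and quartiles (bar) over 83 tested genes of the log2 difference from the Fc mean. The sums overlap between groups, and the medians of ABTAA 1, ABTAA 2 and VEGF Trap 1 lie between -0.16 and -0.13 while that of ABTAA 3 lies at 0.00.

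Gene by gene the levels covered a wide range. The libraries were made with QuantSeq, which reads transcript ends, so that a count does not grow with transcript length and CPM needs no length correction. A read may nevertheless stand more than once under a symbol: the counts of Rps27, Rps28 and Rpl3l were multiples of 2 in every library. The CPM of a gene may thus be a multiple of its reads, which bears on the order of genes but not on a comparison of a gene between libraries. Rplp1, a protein of the stalk that recruits elongation factors, led with a mean of 2384 CPM over the 9 libraries. The small-subunit genes Rps24 (1844 CPM) and Rps20 (1747 CPM) came next, then Rpl22 (1188 CPM) of the large subunit and Rps14 (1103 CPM) of the small subunit. The levels of Rps24 and Rps20 overlapped between libraries, as did those of Rpl22 and Rps14. At the low end of the genes tested stood Rps4l (27.8 CPM), Rpl23a (22.7 CPM), Rpl29 (14.8 CPM), Rpl3l (2.36 CPM) and Rpl39l (0.73 CPM). The median was 140 CPM, against 15.8 CPM for all 14054 genes tested. Rpl10l, a paralogue known from testis, had 1 count in VEGF Trap 3 and 0 in the other 8 libraries, where 3 counts correspond to between 0.208 and 0.473 CPM. It was left out by the filter on low counts, and the other 83 genes were tested.

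**Figure D2:**
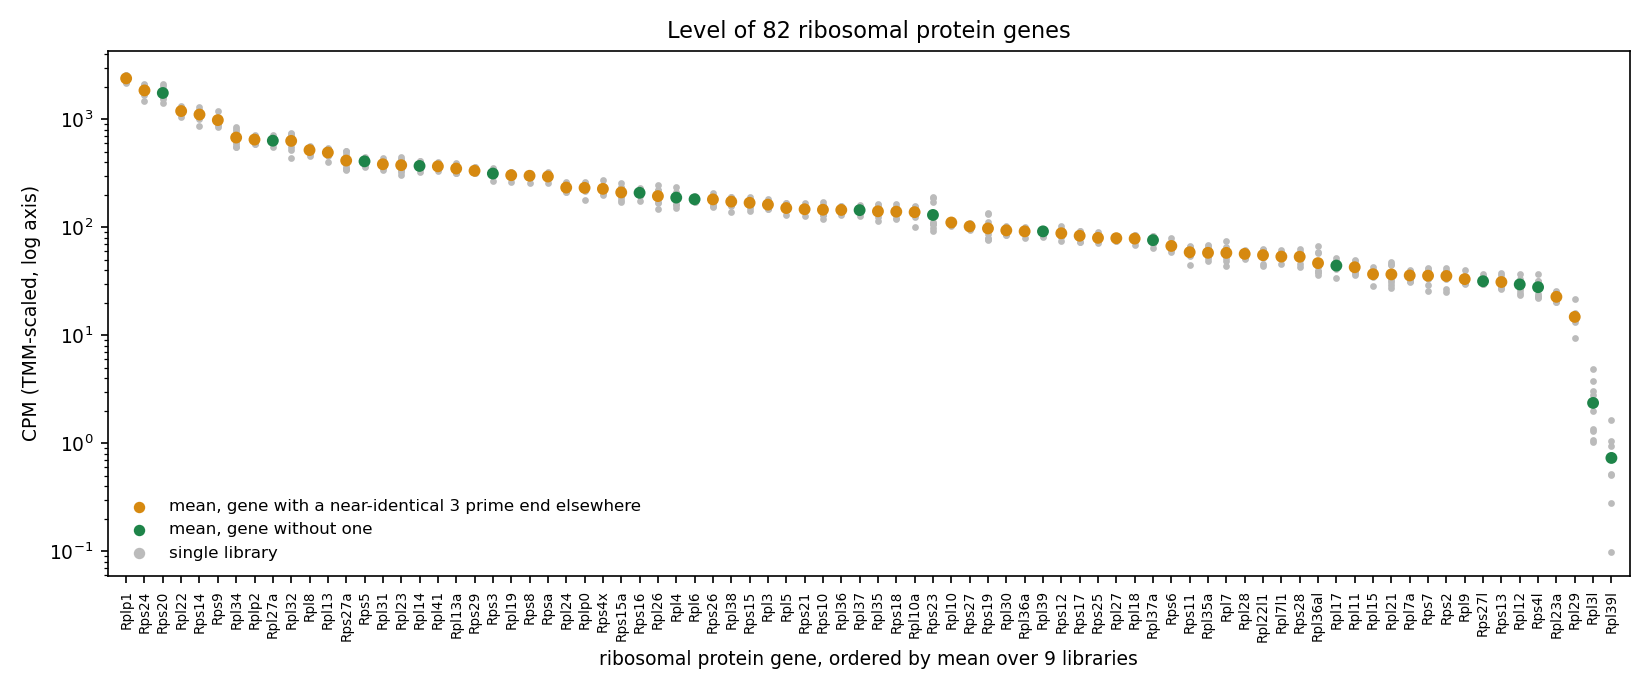
Level of 82 of the 83 tested genes in CPM (TMM-scaled, logarithmic axis), ordered by the mean over 9 libraries. Coloured points are means, orange for genes with a near-identical 3 prime end elsewhere in the genome and green for genes without one; grey points are single libraries. Means run from 2384 CPM for Rplp1 to 0.73 CPM for Rpl39l.

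The counted level of a ribosomal protein gene also depends on its copies. Of the 84 genes, 65 had another annotated gene that matched the last 200 bases of one of their transcripts over at least 100 bases with at least 95% identity, and for 64 of them a pseudogene was among the matches. The median was 5 such copies, and the most were 59 for Rpl21, 55 for Rpl29 and 52 for Rpl7a. Rps23, which had the largest log2 fold change among the members that passed the test, had 0. In the count tables some members and copies held the same numbers. Rpl26 and Gm15772 had exactly the same count in each of the 9 libraries. Rps27 had exactly 2 times the count of Rps27rt, and the count of Rpl34 was between 3.00 and 3.003 times that of Rpl34-ps1. The count of Rpl30 was between 2 and 2.012 times that of Gm12191. How reads with several matches were counted is not given in the sources used here. Whether such rows share reads, or hold reads entered once per transcript, was not tested, and the levels of these members may not be those of the gene alone. Exons of 18 members overlapped those of a gene on the other strand, among them Rpl32 with Cand2, and counting by strand is not stated.

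The first comparison asked how Tie2 activation by ABTAA altered the injured tissue relative to Fc. Of the 83 genes, 4 were lower in ABTAA and 0 higher at an adjusted p under 0.05 (edgeR quasi-likelihood F-test, Benjamini-Hochberg over all 14054 genes). That is 4.82% of the genes, where 1.4% of all genes tested passed in either direction, 0.555% as lower and 0.847% as higher. At an unadjusted p under 0.05, 19 genes were lower and 3 higher, where 8.23% and 8.64% of all genes were. The 4 were Rps23 and Rps19 of the small subunit, Rpl21 of the large subunit and the paralogue Rpl36al. Most of the genes differed little: 60 of 83 lay within 0.25 of 0 on the log2 scale, and for 58 the 95% interval lay within 0.5 of 0.

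Rps23 encodes the protein next to the decoding centre of the small subunit (chromosome 13, 90922958 to 90924950, GENCODE M21 on GRCm38). It measured 187, 189 and 170 CPM in the Fc libraries, 92.3, 108 and 112 CPM in the ABTAA libraries and 106, 106 and 97.7 CPM in the VEGF Trap libraries. Every Fc library lay above every treated library, and the 2 treated groups overlapped. The log2 fold change was -0.80 ± 0.11 (SE) for ABTAA against Fc (edgeR adjusted p = 0.00872) and -0.81 ± 0.11 for VEGF Trap against Fc (edgeR adjusted p = 0.00724). As means, the treated groups held 57.3% and 56.8% of the Fc level. The call was lost for ABTAA without ABTAA 2 (adjusted p = 0.0669) and for VEGF Trap without Fc 2 (adjusted p = 0.0557), with log2 fold changes of -0.83 and -0.79.

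Rpl36al, on chromosome 12, is the paralogue of the X-linked Rpl36a. It measured 67.2, 59.3 and 57.3 CPM in Fc, 35.9, 38.7 and 43.0 CPM in ABTAA and 38.5, 39.3 and 39.4 CPM in VEGF Trap. The 3 Fc libraries again lay above all 6 others. The log2 fold change was -0.65 ± 0.13 in both comparisons (edgeR adjusted p = 0.0320 for ABTAA and 0.0322 for VEGF Trap). An annotated gene, Gm49383, overlaps it on the same strand.

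Rps19 encodes a small-subunit protein whose human gene is mutated in Diamond-Blackfan anaemia. It measured 135, 131 and 112 CPM in Fc, 77.5, 77.1 and 102 CPM in ABTAA and 75.4, 86.0 and 79.9 CPM in VEGF Trap. ABTAA 3 came nearest to Fc without reaching it. The log2 fold change was -0.56 ± 0.13 for ABTAA (edgeR adjusted p = 0.0497) and -0.65 ± 0.13 for VEGF Trap (edgeR adjusted p = 0.0367). Of its 11 near-identical copies, Rps19-ps3 has a row in the tables, with a log2 fold change of -0.23 ± 0.14 for ABTAA and -0.22 ± 0.14 for VEGF Trap (edgeR adjusted p = 0.430 and 0.492).

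Rpl21, of the large subunit, measured 44.3, 47.4 and 46.0 CPM in Fc, 27.5, 32.2 and 29.3 CPM in ABTAA and 35.0, 36.7 and 30.8 CPM in VEGF Trap. The 3 groups differed in order, with Fc highest, but ABTAA and VEGF Trap overlapped. The log2 fold change was -0.63 ± 0.13 for ABTAA (edgeR adjusted p = 0.0370) and -0.42 ± 0.13 for VEGF Trap, which did not pass (edgeR adjusted p = 0.120). The difference between the treated groups was -0.21, with a 95% interval from -0.49 to 0.08. BC004004, which matches the 3 prime end of Rpl21, had a mean of 43.4 CPM. Its log2 fold changes were -0.34 ± 0.15 for ABTAA and -0.18 ± 0.15 for VEGF Trap (edgeR adjusted p = 0.254 and 0.594). With 1 of the 9 libraries left out at a time, the ABTAA calls of Rpl36al, Rps19 and Rpl21 held in 4, 2 and 3 of 9 fits, and that of Rps23 in 8. Their log2 fold changes in these fits ran from -0.72 to -0.58, from -0.71 to -0.49 and from -0.69 to -0.58. The VEGF Trap calls of Rpl36al and Rps19 each held in 3 of 9 fits, with log2 fold changes from -0.70 to -0.58 and from -0.73 to -0.60, and that of Rps23 in 8. For Rpl36al and Rps19 those 3 fits left out an ABTAA library, which is not part of the comparison. Both VEGF Trap calls were lost whichever Fc or VEGF Trap library was left out. The ABTAA call of Rpl21 was likewise lost whichever Fc or ABTAA library was left out. Among the fits without an Fc or ABTAA library, the ABTAA calls of Rpl36al and Rps19 held only without ABTAA 3.

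**Figure D3:**
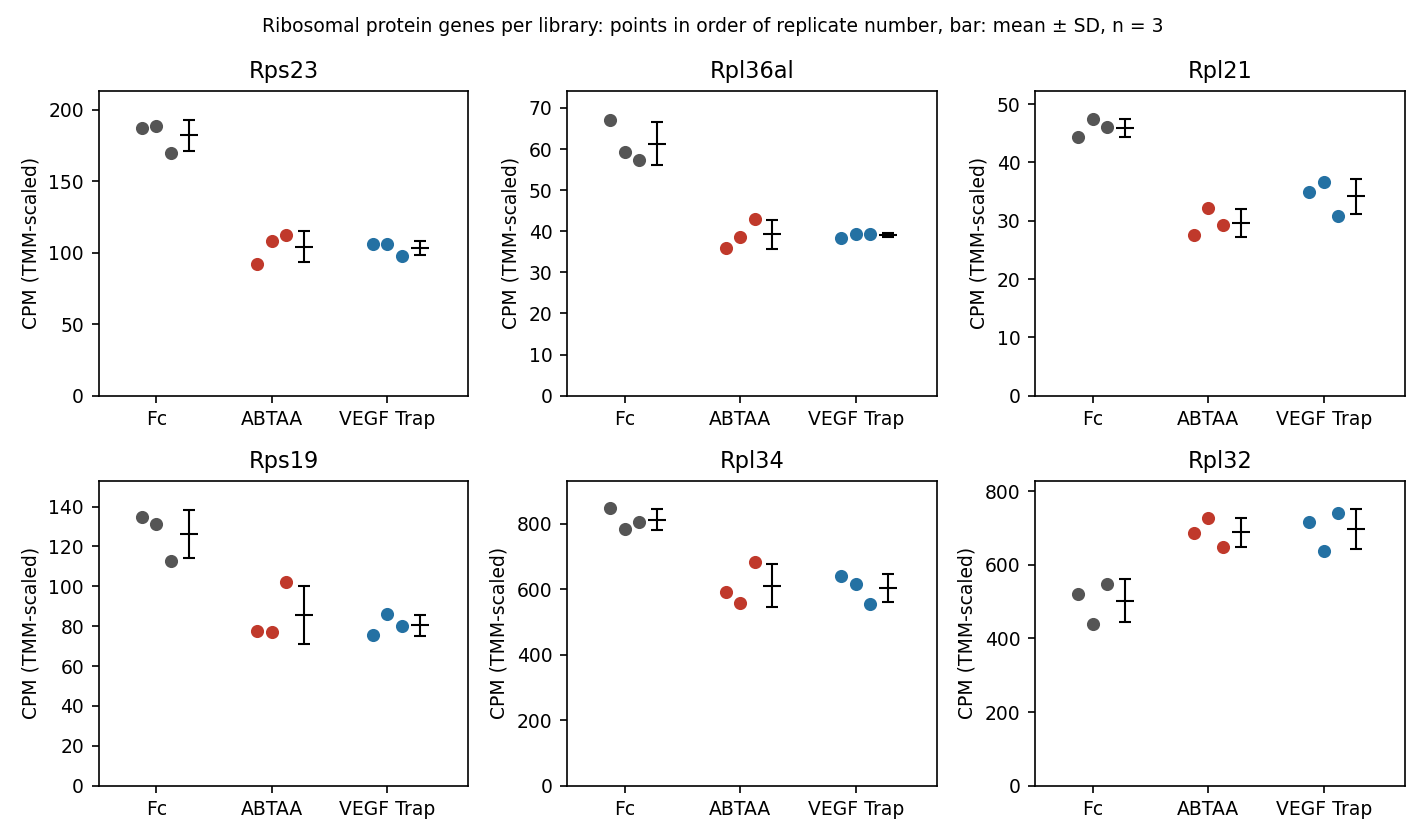
CPM (TMM-scaled) of 6 ribosomal protein genes in each library, points in order of replicate number, with mean ± SD of 3 libraries per group. The Fc libraries lie above all treated libraries for Rps23, Rpl36al, Rpl21, Rps19 and Rpl34, and below all of them for Rpl32.

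Among the genes with the next smallest p, Rpl32 stood out by its direction. It measured 520, 438 and 549 CPM in Fc, 687, 728 and 647 CPM in ABTAA and 715, 636 and 740 CPM in VEGF Trap. The treated libraries all lay above the Fc libraries. Its log2 fold change was 0.45 ± 0.11 for ABTAA and 0.47 ± 0.11 for VEGF Trap, and it missed the threshold in both (edgeR adjusted p = 0.0543 and 0.0509). DESeq2 and limma-voom called it higher in both comparisons. With 1 library left out at a time, edgeR called it in 1 of 9 fits for ABTAA and 0 of 9 for VEGF Trap.

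Rpl34 measured 847, 784 and 806 CPM in Fc, 590, 558 and 684 CPM in ABTAA and 641, 615 and 556 CPM in VEGF Trap. Fc lay above the treated libraries, with log2 fold changes of -0.41 ± 0.11 and -0.43 ± 0.11 (edgeR adjusted p = 0.0619 and 0.0593). Rps27a, which makes a ribosomal protein fused to ubiquitin, measured 511, 474 and 511 CPM in Fc, 347, 340 and 444 CPM in ABTAA and 362, 387 and 346 CPM in VEGF Trap. Its log2 fold changes were -0.40 ± 0.11 and -0.45 ± 0.11 (edgeR adjusted p = 0.0844 and 0.0676). Rpl4, which lines the tunnel through which the new protein leaves, measured 194, 212 and 233 CPM in Fc, 160, 151 and 166 CPM in ABTAA and 200, 180 and 195 CPM in VEGF Trap. It was lower without overlap in ABTAA, by -0.42 ± 0.11, and overlapped Fc in VEGF Trap, at -0.15 ± 0.11 (edgeR adjusted p = 0.0616 and 0.540). Rpl26, of the large subunit, had log2 fold changes of -0.45 ± 0.11 for ABTAA and -0.32 ± 0.11 for VEGF Trap (edgeR adjusted p = 0.0616 and 0.177). DESeq2 and limma-voom called Rpl34 lower in both comparisons, and Rps27a, Rpl4 and Rpl26 lower for ABTAA. For VEGF Trap, DESeq2 called Rps27a lower and limma-voom did not.

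**Figure D4:**
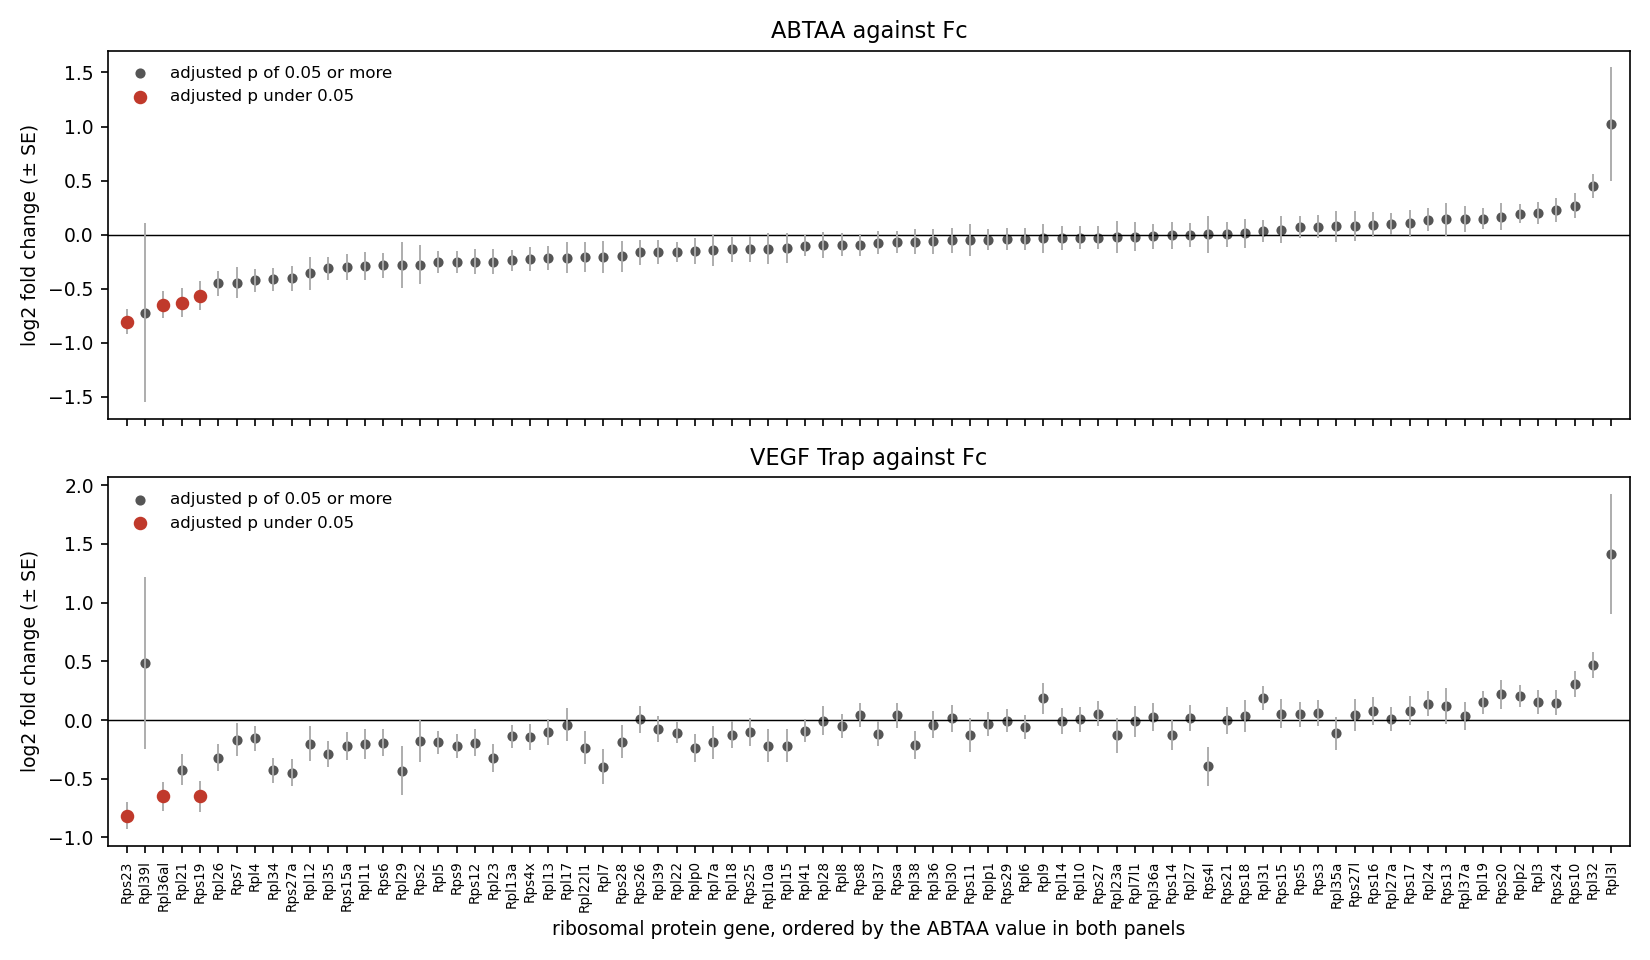
Log2 fold change ± SE of 82 of the 83 tested genes against Fc, for ABTAA (top) and VEGF Trap (bottom), in the order of the ABTAA value. Red points passed an adjusted p of 0.05: 4 genes for ABTAA and 3 for VEGF Trap, all lower. Both panels use the same Fc libraries.

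Over the whole set the ABTAA values leaned lower by a small amount. The median log2 fold change was -0.092, beside -0.003 for all genes tested, and 60 of the 83 genes lay below 0. In 25 genes (30.1%) all ABTAA libraries lay below all Fc libraries, where 11.3% of all genes tested did so, and 15.5% of the 2465 other genes within the interquartile range of the members' levels. In 7 genes (8.43%) all lay above, against 11.7% of all genes. The large subunit had a median of -0.101 and the small subunit of -0.059. The 65 tested genes with a near-identical copy had a median of -0.101, and the 18 tested without one a median of -0.014. The lean was not shared by all libraries: relative to the Fc mean, the median gene stood at -0.16 in ABTAA 1 and -0.14 in ABTAA 2, but at 0.00 in ABTAA 3. ABTAA 3 was also the library of the lowest depth, with 6335805 counts, and without it the median was -0.128.

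The second comparison asked the same of VEGF blockade. Of the 83 genes, 3 were lower in VEGF Trap and 0 higher (3.61%), where 1.02% of all genes tested passed, 0.512% in each direction. At an unadjusted p under 0.05, 13 genes were lower and 4 higher, where 7.49% and 7.89% of all genes were. They were Rps23, Rpl36al and Rps19, with the values given above. The same Fc libraries stand in both comparisons, so a high or low Fc value enters both. The median over the 83 genes was -0.091, beside 0.001 for all genes, with 53 genes below 0. In 21 genes (25.3%) the VEGF Trap libraries all lay below the Fc libraries, against 10.5% of all genes and 14.0% of those other genes of like level. In 7 genes (8.43%) they all lay above, against 10.4%. The median gene stood at -0.13 relative to the Fc mean in VEGF Trap 1, at -0.04 in VEGF Trap 2 and at -0.02 in VEGF Trap 3. Without VEGF Trap 1 the median of the fold changes was -0.025, so that the lean rested largely on that library. Members with a copy had a median of -0.114 and those without one of 0.001. Rpl23, which can bind the Mdm2 ubiquitin ligase, was among the 10 genes with the smallest p, at -0.32 ± 0.12 (edgeR adjusted p = 0.184).

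The third comparison set the treatments against each other. None of the 83 genes passed between ABTAA and VEGF Trap by edgeR, DESeq2 or limma-voom, and 0% of all genes tested did by edgeR. At an unadjusted p under 0.05, 1 was higher in ABTAA (Rps4l, annotated as a pseudogene, 0.39 ± 0.17) and 1 lower (Rpl4, -0.27 ± 0.11), where 2.64% and 2.42% of all genes were. The treated groups did not overlap in 3 genes, higher in ABTAA for Rps4l and lower for Rpl4 and Rpl9, against 5.14% and 4.74% of all genes. Rpl9 had a log2 fold change of -0.22 with a 95% interval from -0.50 to 0.07. Of the other genes with the smallest p, Rps7 (-0.28 ± 0.14), Rpl31 (-0.15 ± 0.10), Rps26 (-0.17 ± 0.12) and Rpl39l (-1.21 ± 0.81) had lower values in ABTAA, and Rpl35a (0.19 ± 0.14) and Rpl7 (0.19 ± 0.15) higher ones. The treated groups overlapped in all 6, at edgeR adjusted p from 0.962 to 0.964. The median over the 83 genes was -0.020, and for 76 of them the 95% interval of the difference lay within 0.5 of 0 on the log2 scale. For Rps23 the treated groups measured 104 ± 10.5 and 103 ± 4.88 CPM (mean ± SD, n = 3).

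The stalk proteins, Rpsa, Rps6, Rpl3, Rpl5 and Rpl11 were described for their known roles, and none of them passed the test. Of the stalk proteins, Rplp1 had log2 fold changes of -0.04 ± 0.10 for ABTAA and -0.03 ± 0.10 for VEGF Trap. Rplp2 measured 584, 598 and 584 CPM in Fc, 660, 664 and 698 CPM in ABTAA and 654, 712 and 670 CPM in VEGF Trap. Its treated libraries all lay above Fc, at 0.19 ± 0.09 and 0.20 ± 0.09, and it did not pass (edgeR adjusted p = 0.296 and 0.293). Wdr89, which matches the 3 prime end of Rplp2, had a higher mean of 1585 CPM. It had 0.21 ± 0.09 and 0.30 ± 0.09 (edgeR adjusted p = 0.234 and 0.108), and whether the 2 share reads was not tested. Rplp0, the base of the stalk, had -0.15 ± 0.12 and -0.24 ± 0.12 (edgeR adjusted p = 0.563 and 0.354). Rpsa, which is also known as a laminin receptor, had -0.07 ± 0.11 and 0.04 ± 0.11. Rps6, the substrate of the S6 kinases downstream of mTOR, measured 80.0, 73.1 and 70.7 CPM in Fc, 58.6, 61.3 and 64.1 CPM in ABTAA and 67.0, 64.9 and 63.9 CPM in VEGF Trap. It lay below Fc without overlap in both groups, at -0.28 ± 0.11 and -0.19 ± 0.11 (edgeR adjusted p = 0.220 and 0.454). Rpl5 and Rpl11, which bind Mdm2 when ribosome assembly is disturbed, had -0.25 ± 0.10 and -0.29 ± 0.13 for ABTAA and -0.19 ± 0.10 and -0.20 ± 0.13 for VEGF Trap, none past the threshold. Rpl3, at the catalytic centre, had 0.20 ± 0.10 and 0.15 ± 0.10.

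Paralogue pairs give a ratio within a library, which does not depend on scaling but does depend on how often a read stands under each symbol. Rpl36al made up 41.9%, 42.6% and 36.2% of the counts of Rpl36al and Rpl36a in Fc, 28.5%, 30.8% and 31.4% in ABTAA and 28.4%, 31.0% and 29.4% in VEGF Trap. Each Fc library held a larger share than any treated one. Rpl36a itself had log2 fold changes of -0.02 ± 0.12 and 0.03 ± 0.12, with ranges that overlapped. The 3 prime ends of the pair are near-identical by the measure above, so reads may be divided between them. Rpl7l1, a paralogue known from ribosome assembly, had 45.0% ± 4.45 of the counts of its pair in Fc, 48.1% ± 6.07 in ABTAA and 51.7% ± 2.98 in VEGF Trap (SD, n = 3), and the ranges overlapped. Rps27l held 23.3% of its pair in Fc, 24.6% in ABTAA and 23.2% in VEGF Trap. With the counts of Rps27 divided by 2, their common divisor, also after seeing the data, these shares were 37.8%, 39.4% and 37.7%. Rpl22l1 held 4.61%, 4.47% and 4.22%. Rps4l, annotated as a pseudogene, held 8.61%, 12.2% and 11.9% of its pair with Rps4x in Fc, 11.9%, 13.5% and 12.4% in ABTAA and 9.48%, 9.11% and 9.54% in VEGF Trap, where Fc 1 was the lowest of all. Of Rpl39l, known from testis, no library held more than 1.96% of its pair with Rpl39. With 3 libraries against 3 an exact permutation test cannot give a two-sided p below 0.1, so these shares were not tested.

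Rpl3l, the paralogue of Rpl3 that skeletal and heart muscle use, measured 1.31, 1.36 and 1.07 CPM in Fc, 1.03, 3.77 and 2.82 CPM in ABTAA and 1.99, 4.88 and 3.05 CPM in VEGF Trap. ABTAA 1 lay below Fc and the other 5 treated libraries above it. The log2 fold change was 1.02 ± 0.53 for ABTAA and 1.41 ± 0.51 for VEGF Trap (edgeR adjusted p = 0.346 and 0.187). Markers of skeletal muscle were higher in the treated groups as well. Of 12 listed, 8 rose in ABTAA and 3 in VEGF Trap, where 0.847% and 0.512% of all genes tested passed as higher. Their summed level was between 119 and 174 CPM in Fc, between 240 and 502 CPM in ABTAA and between 234 and 410 CPM in VEGF Trap. Within the treated groups Rpl3l was highest in ABTAA 2 and VEGF Trap 2, the libraries in which the muscle markers were highest as well. None of the 12 markers was at 0 in every library, and their part in the values of Rpl3l was not tested.

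**Figure D5:**
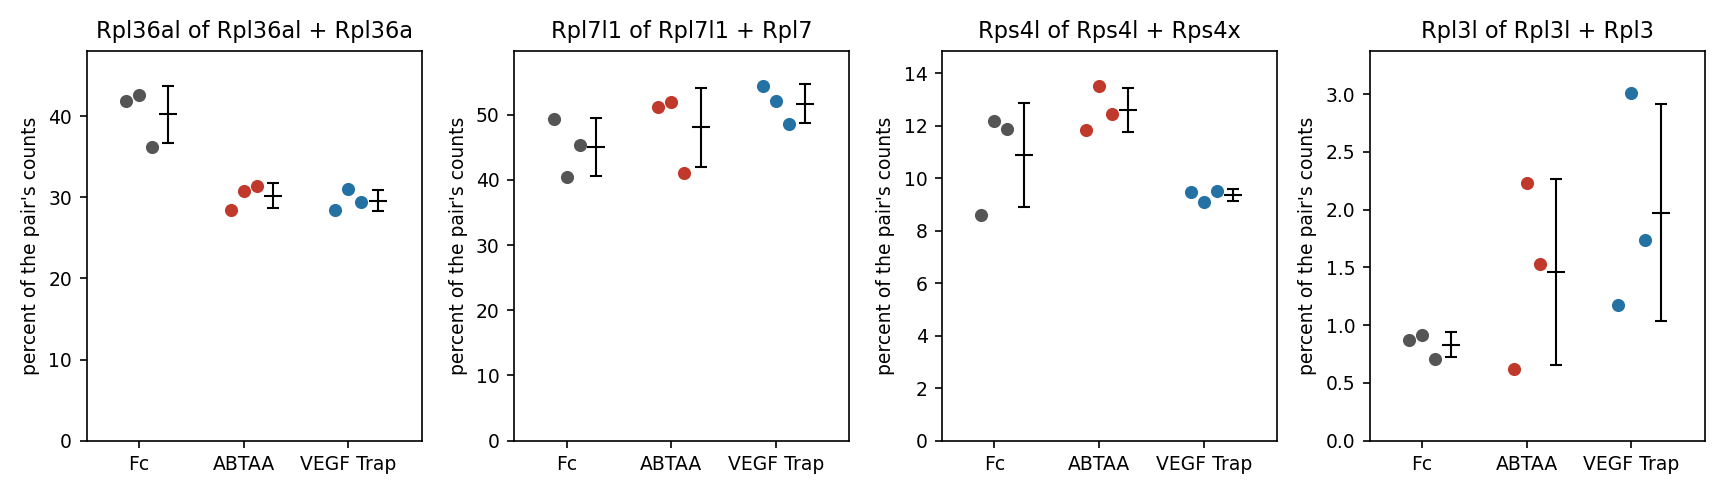
Share of a pair's counts (percent) that fell on the paralogue, for Rpl36al with Rpl36a, Rpl7l1 with Rpl7, Rps4l with Rps4x and Rpl3l with Rpl3, per library in order of replicate number, with mean ± SD of 3 libraries. The Rpl36al share lies between 36.2% and 42.6% in Fc and between 28.4% and 31.4% in the treated libraries. The Rpl3l counts, all multiples of 2, are drawn undivided, with mean shares of 0.831%, 1.46% and 1.97% in Fc, ABTAA and VEGF Trap. Divided by 2, also after seeing the data, they gave 0.417%, 0.737% and 0.998%.

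Other markers differed between the groups in which the ribosomal protein genes were compared. Of all genes tested, 0.847% passed as higher and 0.555% as lower for ABTAA, and 0.512% in each direction for VEGF Trap. At an unadjusted p under 0.05, 8.64% were higher and 8.23% lower for ABTAA, and 7.89% and 7.49% for VEGF Trap. Of 12 endothelial markers, 5 rose in ABTAA and 0 passed edgeR's test in VEGF Trap (3 were higher at an unadjusted p under 0.05), with summed levels from 1842 to 2341 CPM in Fc, from 2812 to 2963 CPM in ABTAA and from 2153 to 2375 CPM in VEGF Trap. Of 10 macrophage and microglia markers, 2 fell in ABTAA and 0 passed in VEGF Trap (1 was higher and 2 were lower at an unadjusted p under 0.05), with sums from 1865 to 1974, from 1495 to 1760 and from 1835 to 2065 CPM. Of 6 pigment cell markers, 1 rose in ABTAA and 2 in VEGF Trap, with sums from 2103 to 2398, from 2763 to 2831 and from 2209 to 4003 CPM. Of 3 neutrophil markers tested, 1 fell in ABTAA and 0 passed in VEGF Trap, with 2 lower at an unadjusted p under 0.05 in each. The list summed to between 81.6 and 505 CPM in Fc, between 44.0 and 54.4 CPM in ABTAA and between 46.3 and 97.0 CPM in VEGF Trap. Of the 7 pigment epithelium markers tested, which define the labelled tissue, 0 passed in either comparison, and the list was present in all libraries, at 1211 to 2265 CPM. No marker of these lists with a row in the tables was at 0 in every library. The part of these cell types in the values of Rps23, Rpl36al, Rps19 and Rpl21 was not tested.

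The other genes that make and serve the ribosome are given beside the shares of all genes tested. Of all genes, 1.4% passed edgeR's test for ABTAA and 1.02% for VEGF Trap, with 0.555% and 0.512% as lower. At an unadjusted p under 0.05, 8.64% were higher and 8.23% lower for ABTAA, and 7.89% and 7.49% for VEGF Trap. Among 77 mitochondrial ribosomal proteins 0 passed edgeR's test in either comparison, with 4 higher and 7 lower for ABTAA and 6 and 7 for VEGF Trap at an unadjusted p under 0.05, and with medians of -0.073 for ABTAA and -0.059 for VEGF Trap. Among 40 factors of ribosome biogenesis 1 (2.5%) fell in each: Nop58, a core protein of the particles that methylate ribosomal RNA. Nop58 measured 50.3, 49.4 and 45.7 CPM in Fc, 31.3, 25.3 and 24.4 CPM in ABTAA and 33.8, 24.1 and 27.3 CPM in VEGF Trap. Its log2 fold changes were -0.84 ± 0.15 and -0.77 ± 0.15 (edgeR adjusted p = 0.0235 and 0.0323). Among 24 translation factors and other messages of the terminal oligopyrimidine class, 2 (8.33%) fell in each comparison. They were Eif2s3x, the X-linked subunit of the factor that brings the initiator tRNA, and Snhg1, a non-coding host of small nucleolar RNAs. Eif2s3x measured between 27.9 and 30.6 CPM in Fc, between 15.2 and 20.3 CPM in ABTAA and between 12.9 and 16.3 CPM in VEGF Trap, with log2 fold changes of -0.80 ± 0.16 and -0.98 ± 0.16 (edgeR adjusted p = 0.0349 and 0.0188). Snhg1 had -0.88 ± 0.20 and -0.99 ± 0.20 (edgeR adjusted p = 0.0451 and 0.0323). At an unadjusted edgeR p under 0.05, 2 of the 24 were higher and 5 lower for ABTAA, and 4 and 4 for VEGF Trap. Tpt1, with a mean of 3224 CPM, had 0.35 ± 0.11 and 0.40 ± 0.11 and did not pass (edgeR adjusted p = 0.119 and 0.0887). The 24 genes summed to 8634 to 9042 CPM in Fc, 9240 to 9851 CPM in ABTAA and 9304 to 10098 CPM in VEGF Trap. Their sum was thus higher in every treated library than in any Fc library, but it weighs abundant genes most. Tpt1 alone measured 2889, 2545 and 2640 CPM in Fc, 3849, 3460 and 2994 CPM in ABTAA and 3891, 3152 and 3593 CPM in VEGF Trap. Of the 24 genes, 9 lay above 0 and 15 below for ABTAA, and 13 and 11 for VEGF Trap, so the sum does not describe the class as a whole. Of 15 regulators of ribosomal protein messages that were tested, 1 (6.67%) fell in each: Cnbp, a zinc-finger protein that binds such messages, at -0.52 ± 0.12 and -0.53 ± 0.12 (edgeR adjusted p = 0.0473 and 0.0460). Of the 3 ribosomal proteins with other symbols 0 passed. The medians of the 24, 40 and 15 genes were -0.090, -0.089 and 0.007 for ABTAA and 0.011, -0.106 and -0.028 for VEGF Trap.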

How the data were processed

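QuantSeq 3 prime libraries of 9 samples were analysed, 3 each of Fc, ABTAA and VEGF Trap, grouped by sample title. The authors deposited raw counts, whole numbers for each gene symbol. The submitters' processing notes name Bowtie2, edgeR and the mm10 build. Not given in the sources used here were versions, annotation, counting tool and strand setting. Headings inside the Fc tables name a knockout control, and the titles were followed instead.

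Counts of all 24421 symbols were filtered with filterByExpr (14054 genes left), scaled by TMM and fitted with edgeR 4.0.16 (quasi-likelihood F-test, all 9 libraries, 6 residual degrees of freedom) in R 4.3.3. The biological coefficient of variation was 17.9%. P-values were adjusted by Benjamini-Hochberg over all genes tested, with a threshold of 0.05. DESeq2 1.42.0 and limma 3.58.1 (voom with quality weights) were alternatives. Standard errors were obtained from the fold change and its F statistic. The fit was tested on simulated data, where it recovered 26% of 50 genes changed 1.5-fold and 53.2% of 47 changed 2-fold. It recovered 86% of 50 genes changed 3-fold and 81.6% of 49 changed 4-fold. Changes of 1.5-fold could thus often be missed. Limits from a count of 0 use 3 counts and cover counting error only. The counts of Rpl3l, Rps27 and Rps28 shared a divisor above 1 in every library, so their counting error is larger than the counts show. Replicate pairs differed by more than counting noise, with chi-square values of at least 8.12 per degree of freedom.

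Symbols were matched to GENCODE M21, all 84 by name, and near-identical ends were searched with BLAST+ 2.17.0. The genes and lists were chosen with earlier results of these data known. Named were, per comparison, the genes past the threshold or, with fewer than 10, the 10 with the smallest p, as well as the stalk and other genes of known role, the paralogue pairs, the 5 highest and the 5 lowest genes, and called genes of related lists. Genes with a row in the tables that matches the end of a member were named after their values were seen. Of the genes this rule gives, 1 is not reported here and is left out of the plots of single genes; it stays in every fit, count and median.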

Additional observations from a re-analysis of the deposited data

How the results depend on the processing

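The count of ribosomal protein genes past the threshold depended on the tool, and the direction of the called genes did not: none changed sign in the 23 alternatives. Against the 4 genes for ABTAA and 3 for VEGF Trap, DESeq2 called 10 and 7, limma-voom 9 and 5, and edgeR without a filter on low counts 10 and 6. Calls rose over all genes too. Of all 14054 genes tested, edgeR called 197 and 144, DESeq2 750 and 671, and limma-voom 411 and 242. Without the filter edgeR called 684 and 616 of 19838. For VEGF Trap, scaling by library totals and dividing counts by their common divisor each gave 5, with 221 of 14054 and 249 of 13865 genes called. Among the 18 tested members without a near-identical copy, 1 passed in each, with medians of -0.014 and 0.00069. The medians stood otherwise between -0.139 and -0.063 for ABTAA, and library totals moved that of VEGF Trap to -0.167. Leaving out 1 library at a time gave 0 to 8 genes for ABTAA and 0 to 4 for VEGF Trap, with medians from -0.128 to -0.063 and from -0.095 to -0.025. Over all genes tested, the fits without 1 library called 0 to 373 for ABTAA and 7 to 144 for VEGF Trap. Without ABTAA 2 the ABTAA count of members was 0, with 0 of 14336 genes called. Without VEGF Trap 1 it was 8, with 373 of 14216 genes called. Without Fc 2 the VEGF Trap count of members was 0, with 7 of 14203 genes called. The member counts thus moved with those of all genes, and the cause was not tested. Rps23 passed in 22 of 23 alternatives in each comparison. The alternatives that only narrowed the set of members kept the same fit, so the values of its genes were fixed in them. Those that left out a library of the group not compared kept both compared groups whole. Summed levels moved to 23866 CPM in Fc and 22056 CPM in VEGF Trap with library totals, and to 25815, 25062 and 25216 CPM in Fc, ABTAA and VEGF Trap with divided counts. Libraries of the same replicate number deviated together only weakly (correlations from 0.013 to 0.112, all positive), and the numbers were not taken to pair them. With the replicate number as a block, 7 genes passed for ABTAA and 5 for VEGF Trap, and with a GC correction as well 6 and 5. Of all 14054 genes, 334 and 300 passed with the block, and 168 and 191 with the GC correction as well. Between ABTAA and VEGF Trap 0 of the ribosomal protein genes passed in any alternative. Over all genes, 30 of 19838 passed without the filter. With DESeq2, with the block, and with the block and GC correction, 1 of 14054 passed each time. Depth limits the low genes most: Rpl39l and Rpl3l had standard errors of 0.5 or more for VEGF Trap.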
